A study of Mus musculus with 6 samples.

Results

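Chromatin accessibility at 38 interferon-stimulated genes was described from ATAC-seq peaks of mouse regulatory T cells (Treg cells) with and without the transcription factor Bcl11b. ATAC-seq uses a transposase that inserts sequencing adapters into open DNA, so a peak marks a stretch where insertions piled up. The cells were sorted as CD4+YFP+ from spleen and draining lymph nodes of mice on a C57BL/6 background. All mice carried Foxp3-IRES-YFP-Cre, which places YFP and Cre recombinase under the Foxp3 gene, the lineage factor of Treg cells, so both groups expressed Cre. The controls were Bcl11b w/w (WT, 3 samples) and the deficient cells Bcl11b f/f (KO, 3 samples), in which deletion is limited to cells that have expressed Foxp3. From each sample 100000 cells were lysed. The labels state neither the age of the mice nor whether animals were pooled.

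Peaks were taken from 1 deposited list per group, covering its 3 samples together, on build mm10. A peak counted when its midpoint lay in the body of one of the 38 genes, or lay between genes with one of them as the nearest protein-coding gene within 100 kb. By this rule 70 of 38258 WT peaks and 67 of 36182 KO peaks were found, 137 of 74440 in all. Peaks of the 2 lists that overlap by at least 1 bp are called shared, and the others WT-only or KO-only. The lists hold no read counts and no values per sample. The depth is therefore unknown, and neither the spread between replicates nor a test of genotype could be had. The intervals below cover counting error only. A site with a peak in one group alone went uncalled in the other group and may still have been open in it. In such bulk samples, an opening in all cells and one in a subset of cells cannot be told apart.

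Type I interferon binds a receptor of the chains Ifnar1 and Ifnar2 and acts through the kinases Jak1 and Tyk2, which activate transcription factors of the STAT family. Together with Irf9 such factors bind the interferon-stimulated response element (ISRE), and without it they bind the gamma-activated site (GAS). The induced genes encode antiviral effectors, sensors of viral RNA and regulators of the response itself. In resting lymphocytes many of them are kept at a basal level by tonic interferon signalling.

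Motifs were sought on both strands of promoter windows from 250 bases before to 50 bases after a transcription start, taken from RefSeq (GRCm38.p6, the coordinates of mm10). The table listed starts for 29 of the 38 genes, in 36 windows. Mx1, Mx2, Oas2, Usp18, Dhx58, Rtp4, Zbp1, Parp9 and Parp14 had none there. The ISRE core was searched as GAAANNGAAA, and it was found in 13 of the 36 windows (36.1%), against 3.35% of all windows of protein-coding genes. With the last base of the core left free, 16 windows held it, against 8.15%. The windows with a core belonged to Isg15, Ifit1, Ifit3, Bst2, Gbp2, Gbp3, Gbp7, Oas1a, Oas3, Rsad2, Ddx58, Eif2ak2 and Ifih1. They held 20 cores, some of which overlapped one another. Of these, 17 began within 200 bases before the start, as those shown here do. The sequences below run 5′ to 3′ on the strand of the gene, end before the transcribed part, and have the ISRE cores in capitals. They are the promoters in which a peak of at least one list lay over a core upstream of the start.

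Isg15, chr4:156200845-156200926, minus strand: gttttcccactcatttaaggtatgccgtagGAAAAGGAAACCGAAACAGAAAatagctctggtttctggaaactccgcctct
Ifit3, chr19:34583343-34583446, plus strand: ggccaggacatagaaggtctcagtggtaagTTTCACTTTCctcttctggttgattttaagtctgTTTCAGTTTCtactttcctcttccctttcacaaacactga
Ifit1, chr19:34640755-34640843, plus strand: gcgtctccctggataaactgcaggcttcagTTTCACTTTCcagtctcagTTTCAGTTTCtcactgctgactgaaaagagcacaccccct
Rsad2, chr12:26456533-26456602, minus strand: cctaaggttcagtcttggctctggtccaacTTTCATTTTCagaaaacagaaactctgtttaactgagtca
Gbp2, chr3:142620574-142620643, plus strand: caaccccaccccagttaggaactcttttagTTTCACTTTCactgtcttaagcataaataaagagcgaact

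In Isg15 the capitals are 3 overlapping cores. In Ifit1 and Ifit3 they are 2 cores each, and the cores of both genes read TTTCACTTTC and TTTCAGTTTC in the same order. The core of Gbp2 has the letters TTTCACTTTC as well.

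Over these sequences the 2 lists differed at some genes and not at others. At Isg15, the ubiquitin-like modifier induced by interferon, a KO-only peak (chr4:156200723-156200915) held all 3 cores, and the nearest WT peak lay over 2 kb from them, 2033 bp from the closest core. At Ifit3, of a family of antiviral proteins with tetratricopeptide repeats, a KO-only peak (chr19:34583345-34583537) held both cores. A WT-only peak (chr19:34583061-34583279) lay 65 bp further upstream and ended 93 bp short of the first core. The Ifit3 pair is thus a pair of neighbouring peaks that do not overlap, whereas Isg15 had no WT peak nearby. At Ifit1 both cores lay in a peak of each list, WT chr19:34640778-34640996 and KO chr19:34640782-34640974. At Rsad2, which encodes viperin, the core lay in a shared peak as well, WT chr12:26456432-26456650 and KO chr12:26456400-26456592. At Gbp2, a guanylate-binding GTPase, the core lay in the KO peak, and the overlapping WT peak began 10 bp beyond it. At Ifih1, encoding the RNA sensor MDA5, the core lay after the start, inside a shared peak.

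Counted by core, 4 of the 20 lay inside a peak of both lists, 6 inside a KO peak alone, 0 inside a WT peak alone and 10 inside no peak. Over the 727 cores in promoters of all protein-coding genes, the shares were 11.1%, 3.99%, 3.85% and 81.0% in the same order. A KO-only peak held 5 of the 20 cores (25.0%, exact 95% interval 8.66 to 49.1%), against 2.48% of those 727 cores. A WT-only peak held 0 of the 20 (interval up to 16.8%), against 1.38%. The 5 cores came from 2 genes, Isg15 and Ifit3, and are not independent. Both intervals treat cores as independent, so neither can be used to compare these genes with all genes. Cores inside no peak were also less frequent here, 10 of the 20 against 81.0% of the 727. The contrast of 25.0% with 2.48% does not separate peak class from how often cores lay in any peak. Shares among covered cores alone were not tested. With cores counted when a peak lay within 150 bp, a setting chosen after seeing the data, 12 cores were near a peak of both lists, 3 near a KO peak alone, 0 near a WT peak alone and 5 near no peak. The 3 were the cores of Isg15. For all protein-coding genes the shares at this setting were 27.8%, 3.03%, 2.89% and 66.3%. The 5 cores near no peak were those of Gbp3, Oas1a and Oas3.

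**Figure D1:**
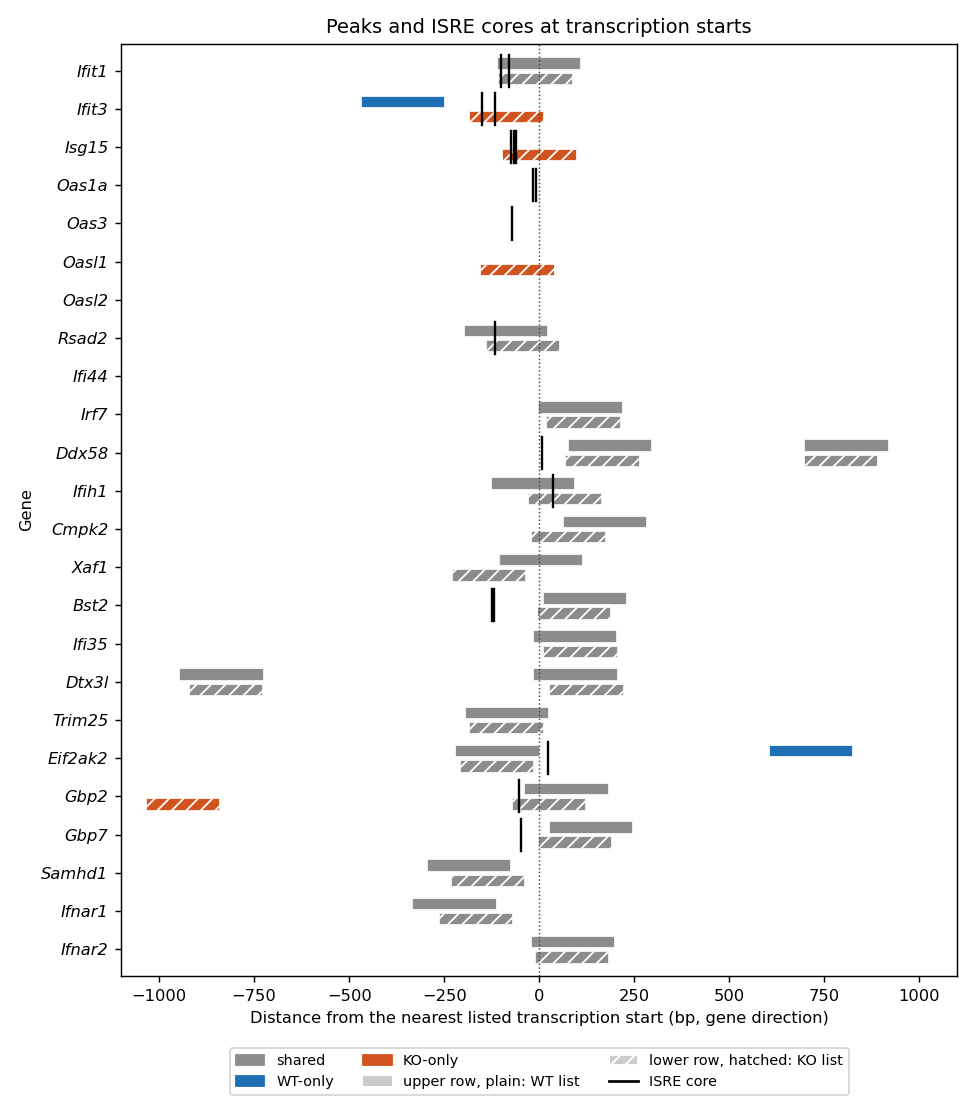
Peaks within 1 kb of the transcription start at the 24 genes with a single listed start, by distance from the start in gene direction (bp). The upper, plain bar of a gene is the WT list and the lower, hatched bar the KO list; colour gives shared, WT-only or KO-only, and black ticks are ISRE cores. Isg15 and Oasl1 have a bar in the KO row alone, and the Ifit3 bars lie side by side.

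Among the other motifs, GAS (TTCNNNGAA) was in 11 of the 36 windows (30.6%), against 7.69% of all windows. At Bst2 it overlapped an ISRE core by a few bases. An ETS motif (CGGAAG) was in 5 windows (13.9%, against 21.1%), and a RUNX motif (TGTGGT) in 6 (16.7%, against 15.0%). Of the 2 interferon motifs, only GAS was found at the receptor genes Ifnar1 and Ifnar2, and neither was found at Irf7, Irf9, Cmpk2, Xaf1, Oasl1, Oasl2, Trim25, Dtx3l or Ifi44. Among these, Trim25 and Ifi44 did have a match to the ISRE core with its last base left free. No match says only that these letters are not in the window. The median GC content of the windows was 53.0%, against 56.3% over all protein-coding genes.

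**Figure D2:**
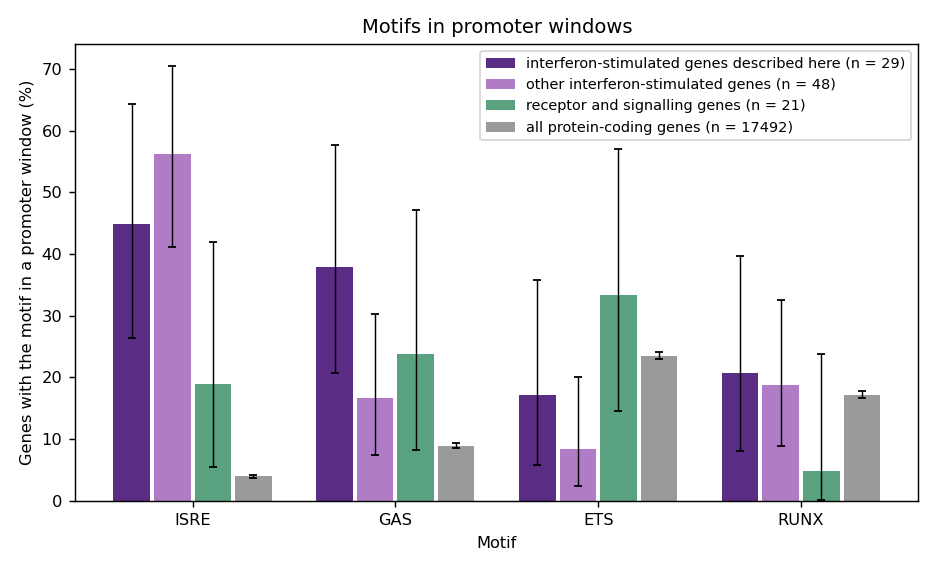
Percentage of genes with each motif in at least one promoter window, for the interferon-stimulated genes described here, the other interferon-stimulated genes, receptor and signalling genes of the pathway and all protein-coding genes; error bars are exact 95% intervals. The ISRE core was in 44.8% of the genes described here, in 56.2% of the other interferon-stimulated genes and in 3.94% of all genes.

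Most of the genes had a peak at their start in both genotypes. Within 1 kb of a listed start, a peak of each list was found at 23 of 29 genes (79.3%, exact 95% interval 60.3 to 92.0%), against 50.2% of all protein-coding genes with a listed start. A start peak in the KO list alone was found at 2 genes, Isg15 and Oasl1, against 1.66% of all genes, and in the WT list alone at 0, against 1.9%. At Oas1a, Oas3, Oasl2 and Ifi44 neither list had one, against 46.2%. At Oasl1, an oligoadenylate synthetase-like gene, the KO-only peak (chr5:114923085-114923277) had its midpoint 59 bp before the start, and the nearest WT peak was 925 bp away. That WT peak was shared, with midpoints 1.19 kb (WT) and 1.28 kb (KO) before the start, just outside the 1 kb window. With a 2 kb window Oasl1 had a start peak in both lists. Of the 28 WT start peaks 2 were WT-only (7.14%, interval 0.877 to 23.5%), against 12.3% of all start peaks in that list. Of the 31 KO start peaks 5 were KO-only (16.1%, 5.45 to 33.7%), against 13.2%. The 5 lay at Isg15, Ifit3, Oasl1, Gbp2 and Adar. The one at Gbp2 lay 939 bp before the start and was assigned to the neighbouring Gbp2b. Those at Ifit3 and Adar had a WT peak within 70 bp.

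At least one peak was assigned to 33 of the 38 genes, against 67.0% of all protein-coding genes. In total 56 peaks were shared, 14 were WT-only and 11 KO-only. The WT-only share was 20.0% of WT peaks (exact 95% interval 11.4 to 31.3%), against 28.4% over all peaks assigned to protein-coding genes. The KO-only share was 16.4% of KO peaks (8.49 to 27.5%), against 24.8%. Both intervals include the value over all genes. KO-only peaks made up 44.0% of the 25 genotype-specific ones (24.4 to 65.1%), where the value over all genes was 45.4%. More KO-only than WT-only peaks were found at 5 of the 33 genes with a peak, and more WT-only at 8. Over protein-coding genes with a peak these values were 20.2% and 26.7%. No gene had a difference of more than 1 peak, and 4 genes had equal numbers of both. A genotype-specific peak was found at 17 of the 33, against 57.1% of protein-coding genes with a peak. Of these, Ifnar2 had 4 such peaks, Parp14 had 3, and Ifit3, Rsad2 and Adar had 2 each. Genotype-specific peaks with a peak of the other list within 500 bp numbered 5, that is 2 of 14 WT-only peaks, against 20.7% over all genes, and 3 of 11 KO-only peaks, against 28.8%.

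**Figure D3:**
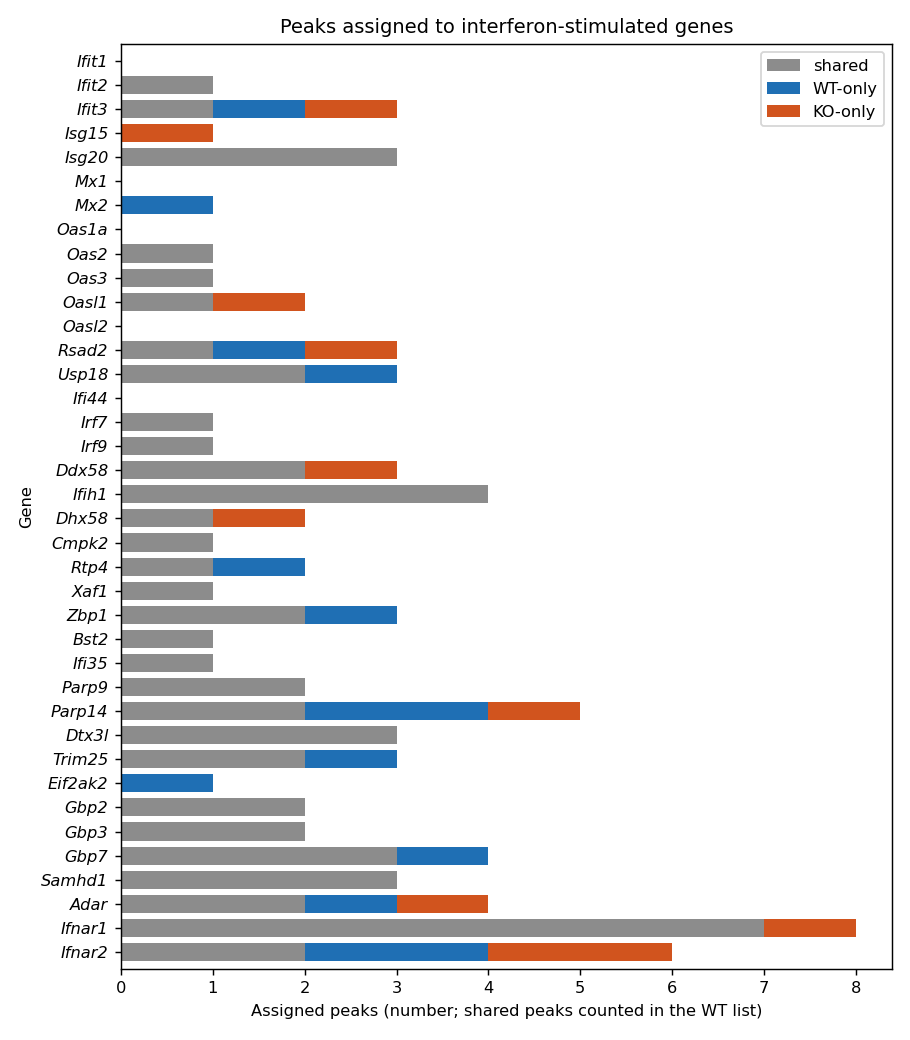
Number of peaks assigned to each of the 38 genes, with shared peaks as counted in the WT list, WT-only and KO-only peaks as stacked bars. Ifnar1 has the longest bar, and no gene has a surplus of more than 1 peak in either direction.

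The receptor genes had the most peaks. Ifnar1 (chr16:91485032-91510523) had 7 shared and 1 KO-only peaks, and at Ifnar2 (chr16:91372783-91405589) 2 peaks were shared, 2 WT-only and 2 KO-only. At Ifnar1 the shared peaks included the start and a series between genes, whose WT midpoints lay 9.28, 14.57, 20.29 and 26.67 kb before the start. The KO-only peak of Ifnar1 (chr16:91522502-91522694) lay 12.07 kb from the end of the gene. At Ifnar2 the start peak was shared. A WT-only peak (chr16:91374005-91374223) and a KO-only peak (chr16:91374294-91374486) lay 70 bp apart in the gene body. The other pair lay upstream, WT-only at chr16:91352158-91352376 and KO-only at chr16:91355299-91355491, with 2922 bp between them. The receptor promoters and the upstream peaks of Ifnar1 were therefore listed in both genotypes.

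Among signalling and sensing genes, peaks were mostly shared. Irf9, which directs binding to the ISRE, had 1 shared peak, at its start. Irf7, the factor that amplifies interferon production, likewise had 1. Of the RNA sensors, Ifih1 had shared peaks alone, and Ddx58 and Dhx58 each had a KO-only peak as well. Ifih1 had 4 shared peaks, at its start, 2 in the gene and 1 upstream. Ddx58, encoding RIG-I, had 2 shared peaks near its start and a KO-only peak in the body (chr4:40229857-40230049), 9.87 kb from the start. Dhx58, encoding the RIG-I-like protein LGP2, had 1 shared peak and a KO-only peak in its body (chr11:100704015-100704207). Trim25, a ubiquitin ligase that acts on RIG-I, had 2 shared and 1 WT-only peaks, and Zbp1, a sensor of Z-form nucleic acids, had the same numbers. Eif2ak2, the RNA-activated kinase PKR, had a WT-only peak in its body (chr17:78881749-78881967) and no other assigned one. Its start peak was shared, but had its midpoint in the overlapping gene Gm26637.

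Some of the antiviral effectors stand beside related genes. In the Ifit cluster on chromosome 19, Ifit2 had 1 shared peak, at its start, and Ifit3 had a further shared peak 4.72 kb after its start. The shared start peak of Ifit1 had its midpoint 2 bp (WT) and 11 bp (KO) before the gene, inside the long model of Ifit1bl1, so Ifit1 had no assigned peak. Rsad2 and its neighbour Cmpk2, a mitochondrial nucleotide kinase, each had a shared start peak. Rsad2 also had a WT-only peak in its body (chr12:26444106-26444324) and a KO-only peak 3.70 kb before the start (chr12:26460054-26460246). The oligoadenylate synthetase genes and the synthetase-like Oasl genes had few peaks. Oas2 and Oas3 had 1 shared peak each, in the gene body, Oasl1 had 1 shared peak besides its KO-only one, and Oas1a and Oasl2 had none. The Oas2 peak was among the last rows of both lists, at 99.9% (WT) and 96.4% (KO), and the Oas3 peak stood at 25.1% and 33.8%. The Ifit and Oas genes belong to families of similar copies, so the placing of reads among them is uncertain. Among the remaining effectors, Isg20, an exonuclease, and Samhd1, which degrades nucleotides needed for reverse transcription, had 3 shared peaks each. Bst2, the tether of budding virions, Ifi35 and Xaf1 had 1 shared peak each, at the start. Rtp4 had 1 shared and 1 WT-only peak, and Ifi44 had none. Adar, the RNA-editing deaminase, had 2 shared peaks, a WT-only peak (chr3:89727040-89727258) and a KO-only peak at a start (chr3:89714811-89715003), 67 bp from a WT peak.

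Mx1 and Mx2, of a family of antiviral GTPases, are transcribed pseudogenes in this annotation of the C57BL/6J genome, so peaks were counted in their bodies alone. Mx2 had a WT-only peak at the edge of the gene (chr16:97536062-97536280), 892 bp from the nearest KO peak. It stood at 21.6% of the WT list, the highest place of any genotype-specific peak of these genes. At Mx1 a shared peak lay just beyond the gene, with its midpoint 24 bp outside in the WT list and 199 bp outside in the KO list.

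The guanylate-binding proteins, GTPases that attack the membranes around intracellular pathogens, had shared peaks at Gbp2 (2), Gbp3 (2) and Gbp7 (3). Gbp7 also had a WT-only peak in its body (chr3:142546907-142547125). Its shared peak in the first part of the gene stood at 10.5% of the WT list and 11.7% of the KO list, and the start peak of Gbp3 stood at 7.49% and 8.60%. Both were thus near the top of each list. On chromosome 16, Parp9 and Dtx3l, partners in ADP-ribosylation and ubiquitination, overlap at the start of Dtx3l and had shared peaks alone, 2 and 3 of them. Parp14, a neighbouring ADP-ribosyltransferase, had 2 shared peaks, 2 WT-only peaks (chr16:35839581-35839799 and chr16:35874665-35874883) and a KO-only peak (chr16:35890880-35891072). Usp18, the protease that removes Isg15 from proteins and restrains Ifnar2 signalling, had 2 shared peaks and a WT-only peak.

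The place of a peak in its list, read here as a rank of strength, is inferred from peak numbers and not stated by the labels. Shared peaks had a median place of 31.6% in the WT list and 34.7% in the KO list, against 37.5% and 41.3% for shared peaks of all genes. Start peaks had a median place of 27.9% in the WT list and 36.7% in the KO list, later than the 20.2% and 23.1% for start peaks of all genes. WT-only peaks had a median of 80.1%, against 76.1%, and KO-only peaks one of 58.5%, against 71.3%. In the upper 50% of the lists stood 3 KO-only peaks, at Isg15, Ddx58 and Ifnar2, and 1 WT-only peak, at Mx2. The totals were thus 11 KO-only against 14 WT-only in the full lists and 3 against 1 there. These counts are small, and no value over all genes is at hand for the upper 50%. Over all genes, too, KO-only peaks had an earlier median place than WT-only ones, 71.3% against 76.1%. Whether the 3 against 1 is particular to these genes was not tested. The shared start peak of Rsad2 stood at 19.0% of the WT list and 44.7% of the KO list, and that of Ifi35 at 28.4% and 57.2%. For the shared start peak of Samhd1 the places were 20.0% and 7.36%. Its other shared peaks stood later in the KO list, at 28.9% (WT) and 63.3% (KO) and at 51.3% and 70.3%. The shared peaks of Ifih1 away from its start did so too, at 36.3% and 63.3%, 42.4% and 58.1%, and 32.1% and 59.2%. The start peak of Ifih1 stood at 13.5% and 16.1%. Other shared peaks stood earlier in the KO list, among them the start peak of Xaf1, at 71.2% (WT) and 49.8% (KO). So did an upstream peak of Ifnar2, at 46.2% and 20.3%, and a peak just beyond Gbp7, at 52.6% and 32.9%. The peaks named here are examples, without the spread of places over all shared peaks. Places in lists of unequal length do not measure a change.

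**Figure D4:**
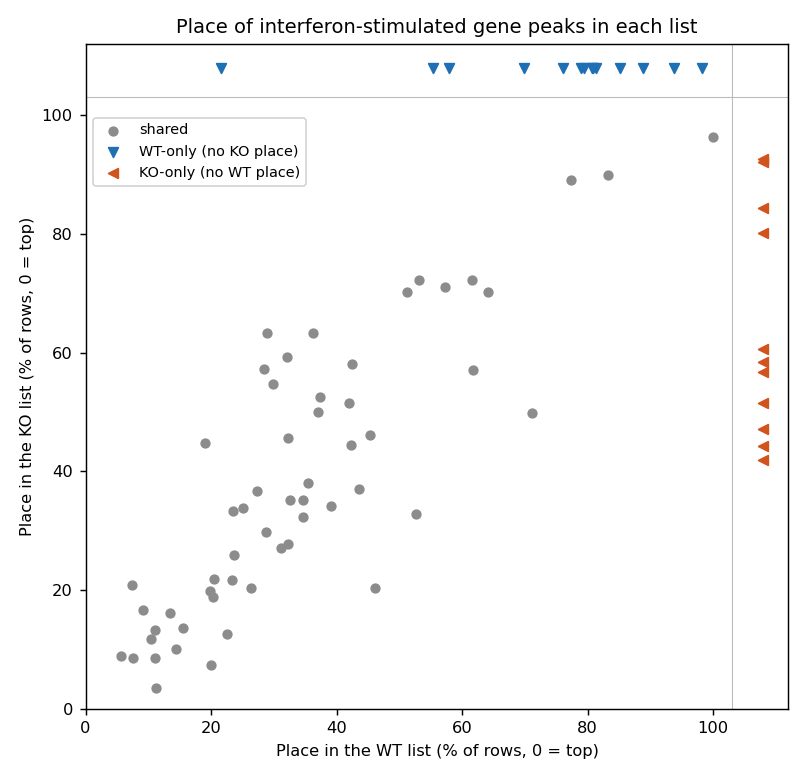
Place of each peak in the WT list (horizontal, % of rows from the top) and in the KO list (vertical), for 56 shared peaks as points. WT-only peaks are triangles along the top and KO-only peaks triangles along the right edge, where they have no place in the other list; the WT-only peak at 21.6% is that of Mx2.

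Other genes of the pathway were counted in the same way. At 23 receptor and signalling genes 60 peaks were shared, 25 were WT-only and 29 KO-only, with a WT-only share of 29.4% and a KO-only share of 33.0%. Over all peaks assigned to protein-coding genes these shares were 28.4% and 24.8%. Of the 23 genes, 21 had a peak. More KO-only peaks were found at 9 of these 21 and more WT-only at 8, where the values for protein-coding genes with a peak were 20.2% and 26.7%. Irf1, a factor induced by interferon gamma, had 3 peaks in the KO-only class and none in the WT-only class. For Socs1, an inhibitor of Jak kinases, and the adaptor gene Myd88 these numbers were 2 and 0. Jak1 and Irf2 each had 6 and 4. Ikbke, a kinase of Irf3, had 0 and 2, and Ifngr1 and Tlr7 had 1 and 3. Only the KO list had a peak at the start of Myd88, and only the WT list had one at the start of Tlr3, a receptor for double-stranded RNA named here after its values were seen. At 61 other interferon-stimulated genes 111 peaks were shared, 49 were WT-only and 41 KO-only. The shares were 30.6% and 27.0%. Of the 59 genes with a peak, 10 had more KO-only peaks and 17 more WT-only ones. Of these, Ifitm1 had 3 KO-only peaks against 0 WT-only ones, Ifi47 2 against 0, and Sp140 3 against 1. Ifi209 had 0 against 3, Nlrc5 3 against 5, and Epsti1 and Stat3 0 against 2. Start peaks were found in both lists at 40 of the 48 of these genes with a listed start, against 50.2% of all protein-coding genes with one. The KO list alone had a start peak at 2 of the 48, against 1.66% of all genes. The WT list alone had one at 1, Sp140, against 1.9%. Of the 37 ISRE cores of these interferon-stimulated genes, 4 lay in a KO-only and 1 in a WT-only peak, against 2.48% and 1.38% over all genes. Inside no peak lay 17 of the 37, against 81.0% over all genes, so here too the contrast includes how often cores lay in any peak. A KO peak alone held 8 and a WT peak alone 4, and within 150 bp of a peak the numbers were 1 and 1.

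The labelled cell type was read from marker genes. Each of the 6 Treg and CD4 T cell markers had a shared peak, Foxp3, Il2ra, Ctla4, Ikzf2, Cd4 and Cd3e, although none lay within 1 kb of the listed start of Foxp3. The 3 B cell markers had no peak. Of the myeloid markers, Itgam had 3 KO-only peaks and Lyz2 1 WT-only peak, with none at their listed starts, and Csf1r had no peak. Of the NK cell markers, Ncr1 had no peak and Klrb1c had 4 shared, 2 WT-only and 1 KO-only ones. Of the CD8 T cell markers, Cd8a had none and Cd8b1 had 1 shared and 1 WT-only. Of the markers of plasmacytoid dendritic cells, which make much type I interferon, Siglech had 1 shared peak and Tcf4, a broadly used factor, had 5 KO-only peaks beside 2 WT-only and 5 shared ones, while Bst2 is itself among the 38 genes. None of Ncr1, Klrb1c, Cd8a and Siglech had a peak within 1 kb of its listed start. Whether DNA of other cells has a part in the KO-only peaks at Isg15, Ifit3 and Oasl1 was not tested.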

How the data were processed

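Peaks were called by the authors on mm10. The submitters' processing notes name HISAT2 2.1.0, HOMER 4.10.1, SAMtools 1.3, deepTools, cutadapt 1.12, FastQC and Trim Galore 0.4.2, without their roles. The peak threshold, the handling of replicates and any shift of reads for the transposase are not given in the labels. Each deposited list joins the 3 samples of a group, per the labels. The score that the authors deposited is 1 in every row. Most peaks are 219 bp (WT) or 193 bp (KO) wide, so WT peaks cover slightly more sequence.

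Overlap, assignment to genes (RefSeq, GRCm38.p6, 21887 protein-coding genes) and motif matches were computed with pandas 2.3.3, numpy 2.4.6 and scipy 1.17.1 under Python 3.11.15, with figures from matplotlib 3.10.9. A peak inside several genes counted for each. Intervals are exact Clopper-Pearson. The overlap and assignment steps were tested on 800 simulated peaks against bedtools 2.31.1 and a direct search, with 0 differences. In the promoter table, 717 overlapping windows of opposite strands matched as reverse complements and 0 differed. Named are all 38 genes and, of the other pathway genes, those with a difference of at least 2 peaks; one gene of the signalling list is not reported here. Coordinates of genotype-specific peaks are given for the 12 genes with most of them, with ties by alphabet, and for Oasl1, chosen after its values were seen. The genes and lists were chosen with earlier results of these data known. Alternatives were other overlap rules, other assignments, the upper part of each list, a shortened WT list, other start windows and a looser ISRE core.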

Additional observations from a re-analysis of the deposited data

How the results depend on the processing

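No paired analysis was possible because the lists hold no values per replicate, and no replicate could be left out. When 50% of the shorter peak had to overlap, KO-only peaks numbered 17 in place of 11 and WT-only peaks 20 in place of 14. With gene bodies alone there were 6 KO-only, 10 WT-only and 32 shared peaks. At this setting 3 genes had more KO-only peaks and 7 had more WT-only ones, with a total difference of -4. In the upper 50% of both lists by place, 1 WT-only and 3 KO-only peaks were left, with more KO-only at 3 genes and more WT-only at 1. The total of KO-only minus WT-only peaks was 2 there in place of -3. It rests on few peaks, with no value over all genes to set beside it. The total of KO-only minus WT-only peaks was -1 by the nearest gene end and also -1 with as many WT as KO peaks kept by place. With ISRE cores counted within 150 bp of a peak, cores near both lists numbered 12 in place of 4 and cores near a KO peak alone 3 in place of 6. Leaving out Ifnar2 gave 12 WT-only against 9 KO-only peaks. The start peaks in both lists (23 to 25 genes) and the ISRE cores (13 to 16 genes) moved little. With the 2 kb start window, however, Oasl1 no longer had a start peak in the KO list alone. Depth is unknown, so a missing peak may be a missed call.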
